A study of Mus musculus with 2 samples.

Results

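The family of miR-148a, miR-148b and miR-152 (mmu-miR-148a-3p, mmu-miR-148b-3p, mmu-miR-152-3p and their 5p partners, written below without the prefix mmu) comes from 3 separate genes and carries the same seed on the 3p arms. Its members were taken by name, as the 3p and 5p names of these 3 hairpins. Of these 6 names, 5 were listed among the 1477 mature miRNA names found in either library, and miR-148a-5p was listed in neither and was taken as 0. Whether the authors' counting could report that name is not known here, so its limits and comparisons below hold only if it could. The data were 2 replicate libraries of 1 group, from mouse skin keratinocytes grown in a low-calcium medium. The cells expressed an exogenous desmoplakin-BirA fusion (Dsp-BirA) and were treated with biotin. BirA is a biotin ligase and desmoplakin is a protein of the desmosomal plaque, and the design of the study was to label proteins at that junction. Where the labelling took place was not analysed here. RNA was recovered with the labelled proteins on streptavidin beads, as part of a study of what Argonaute proteins do at the plaque by CLEAR-CLIP, in which a miRNA can be ligated to the RNA it is paired with. No library without the fusion, without biotin or before the pulldown was analysed here, so the values are levels in the recovered RNA and not enrichments. The fusion was overexpressed, and the labels do not say whether the 2 replicates came from separate cultures, so the spread between them may be technical.

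An miRNA gene is transcribed as a longer RNA that folds into a hairpin, from which a short duplex of a 5p and a 3p strand is cut. An Argonaute protein keeps 1 strand of the duplex, the guide, and the other is mostly discarded. The guide finds its targets chiefly through its seed, bases 2 to 8, so miRNAs with the same seed can share targets. The 3p strands are the known guides of this family, and the DNA methyltransferase gene Dnmt1 is among its best-known targets.

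The mature sequences are shown because the family is defined by them. They are written 5′ to 3′ with the seed in capitals, and come from RefSeq (GRCm38.p6). The 3p strands of the family were the following.
miR-148a-3p: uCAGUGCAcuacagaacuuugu
miR-148b-3p: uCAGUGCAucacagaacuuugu
miR-152-3p: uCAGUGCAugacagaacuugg
All 3 began with U and were identical over their first 8 bases. Counted from 1 at the 5′ end, miR-148b-3p differed from miR-148a-3p by C9U and U10C, and the other 20 of 22 bases were the same. From miR-148b-3p to miR-152-3p the differences were C10G and U20G, and miR-152-3p was also shorter, at 21 bases. From miR-148a-3p to miR-152-3p they were C9U, U10G and U20G. How the authors treated reads that match several names is not given in the sources used here, so the split of counts among these 3 near-identical strands is less certain than their sum. RefSeq listed no other mouse miRNA with this seed, but it held a mature sequence for only 1231 of the 1477 names. The seed pairs with the DNA-letter site TGCACTG.

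The 5p strands were less alike and are shown because their counts differed most between the hairpins.
miR-148a-5p: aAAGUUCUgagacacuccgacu
miR-148b-5p: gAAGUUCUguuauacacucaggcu
miR-152-5p: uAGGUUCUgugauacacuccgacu
miR-148a-5p and miR-148b-5p had the same seed, and that of miR-152-5p was different. In gapped alignments over 24 columns, 18 columns were identical between miR-148a-5p and miR-148b-5p, 19 between miR-148a-5p and miR-152-5p, and 19 between miR-148b-5p and miR-152-5p. The 5p strands began with A, G and U, respectively.

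The hairpins that hold both strands are shown with the 5p strand as the first stretch of capitals and the 3p strand as the other.
Mir148a: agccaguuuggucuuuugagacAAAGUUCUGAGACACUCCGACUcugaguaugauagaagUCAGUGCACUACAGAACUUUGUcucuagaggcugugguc
Mir148b: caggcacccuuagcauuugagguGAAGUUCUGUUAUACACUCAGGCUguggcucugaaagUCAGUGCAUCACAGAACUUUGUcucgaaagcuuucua
Mir152: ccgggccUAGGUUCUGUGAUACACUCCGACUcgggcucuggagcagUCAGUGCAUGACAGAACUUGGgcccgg
The 2 strands were separated by 16 bases in Mir148a, 13 in Mir148b and 15 in Mir152. Mir148b lies at chr15:103285125-103285221 on the plus strand (GRCm38.p6), inside the span of Copz1, 12237 bases after the start of that gene. Mir152 lies at chr11:96850393-96850465 on the plus strand, inside the span of Copz2 and 517 bases after its start. Copz1 and Copz2 are both transcribed from the plus strand and encode related zeta subunits of the COPI vesicle coat. Mir148a lies at chr6:51269812-51269910 on the minus strand, inside the span of the gene model Gm38821, whose strand the tables used here did not give. Whether these positions are exonic or intronic was not analysed here, because the gene table holds whole spans only.

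Replicate 1 held 3776893 miRNA counts and replicate 2 held 4122955. Levels are given as CPM, counts per 1000000 miRNA counts of the library, and a name at 0 could have had as many as 3 counts, which is 0.794 CPM in replicate 1 and 0.728 CPM in replicate 2. Intervals and limits cover counting error only, since PCR copies of a read are not independent molecules. The labelled cell type was checked on marker miRNAs. All 7 epithelial miRNAs of the list used (the miR-200 family, miR-205-5p and miR-203-3p) were found in both libraries, at 10.6% of the counts of each. Of 5 mesenchymal markers, 3 were in both libraries, with a summed level of 24.9 and 101.1 CPM. The higher sum in replicate 2 came from miR-214-3p alone, with 26 and 364 counts, and miR-143-3p and miR-199a-5p were each at 0 in one library. Of 5 blood markers, 2 were in both, with 6.09 and 11.9 CPM in sum, and miR-451a and both arms of miR-142 were each at 0 in one library. Both endothelial markers, the arms of miR-126a, were in both, with 515.5 and 426.4 CPM in sum. The liver marker had 4.50 and 8.49 CPM. Of 2 neural markers 1 was in both, with a summed 113.9 and 101.6 CPM, and of 3 muscle markers 1 was in both, with 34.7 and 20.4 CPM. The part of other cell types in the levels of the family was not tested.

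The family was a minor part of the recovered miRNAs, and miR-152-3p made up most of it. The 6 names held 3719 counts in replicate 1, or 0.0985% of all miRNA counts (Wilson 95% interval 0.0954% to 0.102%). In replicate 2 they held 4986 counts, or 0.121% (0.118% to 0.124%). The mean share was 0.110% ± 0.0159 (SD, n = 2). The 3p names carried nearly all of it, with 3586 and 4738 counts, against 133 and 248 for the 5p names.

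miR-152-3p had 2355 counts in replicate 1 and 3129 in replicate 2, or 623.5 and 758.9 CPM, with a mean of 691.2 ± 95.7 CPM (SD, n = 2). It was the most abundant member in both libraries and held 63.3% of the family's counts in replicate 1 and 62.8% in replicate 2. Its share within the family thus varied by less than 1 percentage point while its level differed between the libraries. Among all names it ranked 115 in replicate 1 and 110 in replicate 2.

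miR-148a-3p had 578 and 956 counts, or 153.0 and 231.9 CPM, with a mean of 192.5 ± 55.7 CPM (SD, n = 2). It was lower in replicate 1 and ranked 199 there and 164 in replicate 2. miR-148b-3p had the same 653 counts in both libraries, or 172.9 and 158.4 CPM, with a mean of 165.6 ± 10.3 CPM and ranks of 187 and 196. It was the steadiest of the 3 guides in level. miR-148a-3p held 15.5% and 19.2% of the family's counts, and miR-148b-3p held 17.6% and 13.1%.

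Among the 5p names, miR-148b-5p was the highest, with 99 and 228 counts, or 26.2 and 55.3 CPM. miR-152-5p had 34 and 20 counts, or 9.0 and 4.85 CPM. miR-148a-5p had 0 counts in both libraries, while its 3p partner, at 192.5 CPM, was at a level like that of miR-148b-3p. The order of the 5p names was thus different from that of the 3p names: the hairpin with the most 3p reads, miR-152, was not the one with the most 5p reads.

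**Figure D1:**
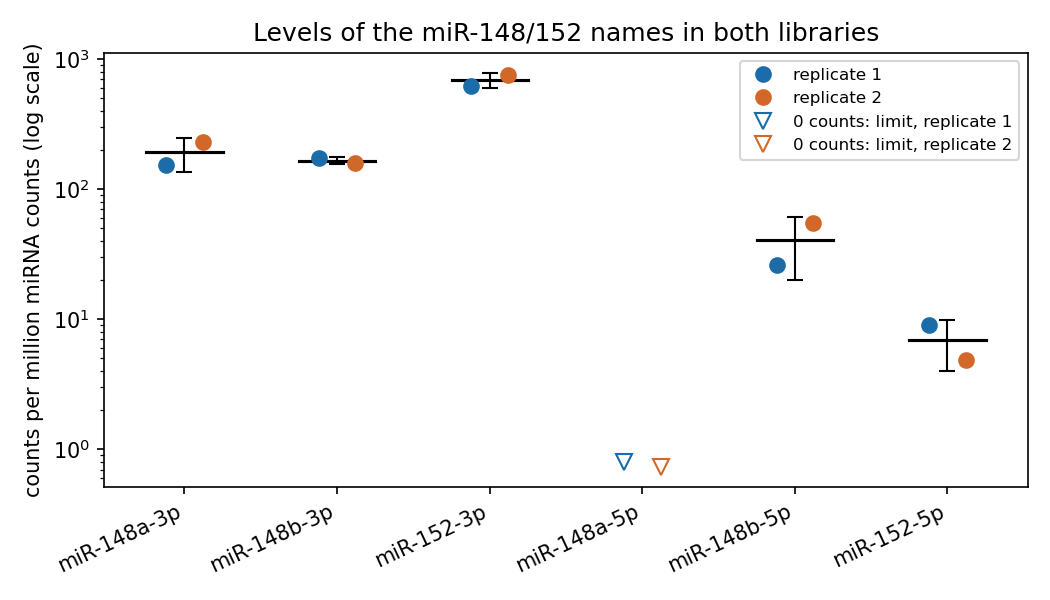
Level of each family name in CPM (log axis) in replicate 1 (blue) and replicate 2 (orange), with the mean as a black bar and the SD over the 2 libraries as an error bar. miR-152-3p is the highest at 691.2 CPM, miR-148a-3p and miR-148b-3p overlap, and miR-148a-5p has 0 counts in both, drawn as open triangles at the limits of 0.794 and 0.728 CPM.

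The gap between miR-152-3p and the other guides exceeded the spread between the libraries. miR-152-3p had 4.07 times the counts of miR-148a-3p in replicate 1 (exact 95% interval 3.72 to 4.47) and 3.27 times in replicate 2 (3.04 to 3.52), a mean ratio of 3.67 ± 0.567 (SD, n = 2). Against miR-148b-3p it had 3.61 times the counts in replicate 1 (3.31 to 3.94) and 4.79 times in replicate 2 (4.40 to 5.22), a mean of 4.20 ± 0.838. In exact binomial tests within each library, two-sided and Benjamini-Hochberg adjusted over the 6 tests made (3 pairs of guides in 2 libraries), the largest adjusted p of these 4 comparisons was 7.06e-224. These tests cover counting error only. Over the 2 libraries an exact sign-flip test of a ratio cannot give a p below 0.5.

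miR-148a-3p and miR-148b-3p had no fixed order. miR-148a-3p had 0.885 times the counts of miR-148b-3p in replicate 1 (exact 95% interval 0.790 to 0.992, exact binomial adjusted p = 0.0349) and 1.46 times in replicate 2 (1.32 to 1.62, adjusted p = 5.19e-14). The mean ratio was 1.17 ± 0.409 (SD, n = 2), so the difference between these neighbours was smaller than the spread between the libraries, and its direction depended on the library.

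Reads of the 3 hairpins came mostly from the 3p strand, but to different degrees. A hairpin's 5p share is the percentage of its 5p and 3p counts that were 5p. For miR-148b it was 13.2% in replicate 1 (99 of 752 counts, Wilson 95% interval 10.9% to 15.8%) and 25.9% in replicate 2 (228 of 881, 23.1% to 28.9%). For miR-152 it was 1.42% (34 of 2389, 1.02% to 1.98%) and 0.635% (20 of 3149, 0.412% to 0.979%). For miR-148a it was 0 of 578 counts, which allows up to 0.519%, and 0 of 956, which allows up to 0.314%. The intervals of miR-148b lay above those of the other 2 hairpins in both libraries. Each share rests on the hairpin's own 3p counts. The uncertain split of reads among the 3 near-identical 3p strands therefore also affects these shares and the tests made on them.

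Expressed as a ratio, the 3p strand of miR-148b had 6.60 times the counts of its 5p strand in replicate 1 and 2.86 times in replicate 2. For miR-152 the ratios were 69.3 and 156.5. For miR-148a the 5p strand was set at the floor of 3 counts in each library. This gave lower limits of about 193-fold in replicate 1 and 319-fold in replicate 2, if miR-148a-5p could be counted at all. miR-148a-5p and miR-148b-5p thus share a seed in the sequences above but differed in listed counts, with 0 and 0 against 99 and 228.

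The excess of 3p over 5p reads was tested in each library with an exact two-sided binomial test, adjusted over the 164 hairpins that had both arms listed and at least 100 counts in each library. Of these, 37.2% had more 3p reads in replicate 1 and 34.1% in replicate 2 at an adjusted p under 0.05. miR-148b was among them in both libraries, with adjusted p-values of 1.04e-100 and 4.57e-48, as was miR-152, whose adjusted p-values were too small for the software to store. miR-148a could enter only where an unlisted arm was counted as 0, a setting chosen after the data were seen. It then passed with adjusted p-values of 3.60e-174 and 6.57e-288 among 178 hairpins, of which 39.3% and 36.5% had more 3p reads.

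The 5p share was also compared between the hairpins within each library by Fisher's exact test, two-sided, over 6 comparisons chosen after the data were seen. miR-148b exceeded miR-152 in replicate 1 (adjusted p = 5.85e-36) and replicate 2 (3.72e-134), and exceeded miR-148a in both (2.67e-26 and 1.20e-80). miR-152 against miR-148a gave adjusted p = 0.00100 in replicate 1 and 0.00701 in replicate 2. With miR-148a-5p set at the floor of 3 counts the unadjusted p was 0.0937 and 0.326 (Fisher's exact test). That setting adds counting error to a test that already includes it, so it cannot decide whether depth limits this difference. Because the difference also rests on whether miR-148a-5p could be counted, no conclusion is drawn from it. The 5p share was compared between the libraries for the 178 hairpins. Some of these, such as miR-148a, had an arm at 0 in both libraries and could not differ, which lowers the percentage called. Of the 178 hairpins, 61.8% differed in 5p share between the libraries at an adjusted p under 0.05. miR-148b, which was higher in replicate 2 (Fisher's exact test, p adjusted over the 178 of 8.57e-10), and miR-152, which was lower (0.00698), were among them, so that such a difference is common in these libraries.

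Among the 68 hairpins of the 178 in which most reads, averaged over the libraries, were 3p, the median 5p share was 2.06%. The mean share of miR-148b, 19.5%, was exceeded by 14 of the 68 and was above that of 53. The mean share of miR-152, 1.03%, was exceeded by 37 and was above that of 30. A 5p count of 0 in both libraries was found for 9 of the 68, miR-148a among them. The family thus lay on both sides of the median, with miR-148b in the upper part.

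**Figure D2:**
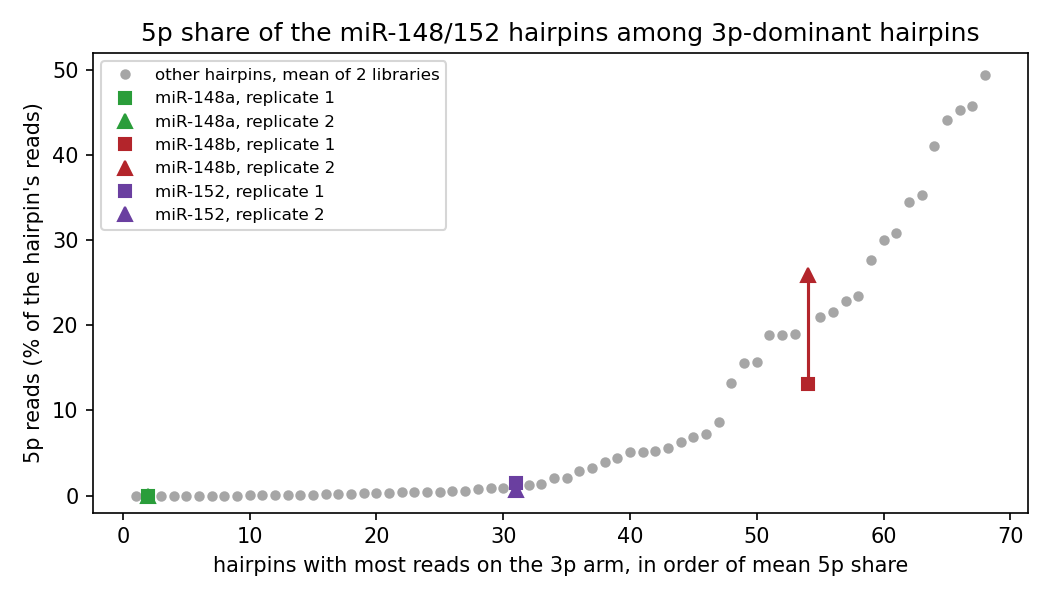
Share of 5p reads (vertical axis, percent of the hairpin's reads) for the 68 hairpins with most reads on the 3p arm, in order of the mean share; grey points are means of the 2 libraries, and coloured squares and triangles are replicates 1 and 2 of the family's hairpins. miR-148b stands at 13.2% and 25.9%, miR-152 at 1.42% and 0.635%, and miR-148a at 0 in both.

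The libraries were compared name by name by exact binomial tests, two-sided, with the library totals setting the expected split, and p-values were adjusted over the 1002 names that averaged 10 counts or more. This compares 2 libraries of the same condition, and 70.6% of the names tested differed at an adjusted p under 0.05, with 36.2% higher and 34.3% lower in replicate 2. Of the 6 family names, 5 could be tested and 4 differed, 3 higher and 1 lower in replicate 2. That count is close to the background and is no property of the family. The sizes are therefore set against the SD of the log2 ratio among all names of similar count found in both libraries.

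miR-148a-3p was higher in replicate 2 by a log2 ratio of 0.60 (exact 95% interval 0.45 to 0.75, adjusted p = 1.48e-14), where the SD was 0.48 over 97 names averaging 300 to 1000 counts. miR-148b-3p, in the same class, had a log2 ratio of -0.13 (-0.29 to 0.03, adjusted p = 0.147) and was not called. miR-152-3p had a log2 ratio of 0.28 (0.21 to 0.36, adjusted p = 3.63e-12), within the SD of 0.33 over 100 names averaging 1000 to 10000 counts. The median size of the log2 ratio, regardless of sign, was 0.30 in the class of the miR-148 guides and 0.16 in that of miR-152-3p. The ratios of miR-148a-3p and miR-152-3p were thus above the median of their class, with that of miR-148a-3p also above 1 SD, and that of miR-148b-3p was below the median.

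miR-148b-5p was higher in replicate 2 by a log2 ratio of 1.08 (0.73 to 1.43, adjusted p = 6.62e-10), against an SD of 1.04 over 102 names averaging 100 to 300 counts. miR-152-5p was lower, with a log2 ratio of -0.89 (-1.77 to -0.05, adjusted p = 0.0415), against an SD of 2.47 over 261 names averaging 10 to 30 counts. The 2 strands of miR-148b therefore moved unequally, 1.08 for the 5p strand and -0.13 for the 3p strand.

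The 3p names were also summed, since a sum does not depend on how a read is assigned to 1 of these near-identical sequences. It does depend on whether reads matching several were dropped or counted more than once, which is not given. The sum was higher in replicate 2 by a log2 ratio of 0.28 (exact 95% interval 0.21 to 0.34), with an exact binomial p adjusted over 720 seed families of 6.91e-17. Of those families 72.2% differed between the libraries. The ratio of the sum was close to that of miR-152-3p alone, 0.28.

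**Figure D3:**
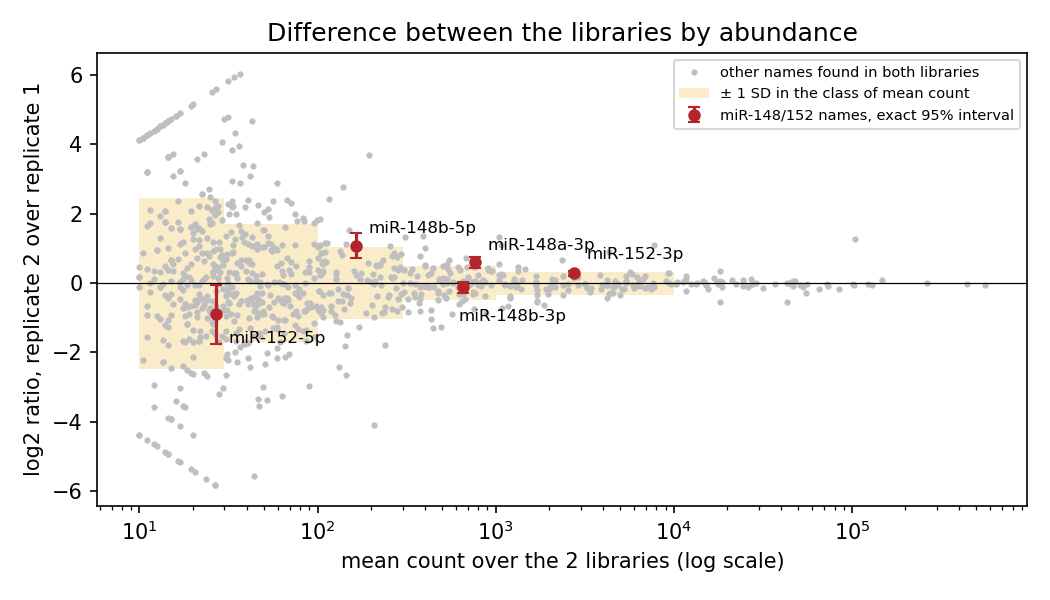
Log2 ratio of replicate 2 over replicate 1 (vertical axis) against the mean count of the name (log axis) for names that averaged 10 counts or more and were found in both libraries; red points are family names with exact 95% intervals, and the yellow band is 1 SD on either side of 0 in each class of mean count up to 10000. miR-148b-5p at 1.08 and miR-148a-3p at 0.60 lie just above the band, and the other 3 lie inside it.

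Among names grouped by seed, the family ranked 54 of 1051, with 949.5 CPM in replicate 1 and 1149 CPM in replicate 2 for its 3p names. It ranked 56 in replicate 1 and 51 in replicate 2. The ranking used the 1231 names with a RefSeq mature sequence, which held 90.2% and 88.0% of the counts. Its neighbours were miR-93-3p above, with 1073 ± 26.6 CPM, and the family of miR-28a-5p and miR-708-5p below, with 1008 ± 36.1 CPM (SD, n = 2). These gaps were smaller than the SD of the family, 1049 ± 141.2 CPM, so its place among these neighbours is not resolved.

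The names nearest in level to each guide were found by the distance between log2 CPM values over the 2 libraries, among the 853 names that were in both libraries and averaged 10 counts or more. For miR-152-3p they were miR-130a-3p, with 616.9 and 746.6 CPM at a distance of 0.03, and miR-106b-3p, with 660.3 and 732.2 CPM at 0.10. miR-106b-3p also ranked directly above it by mean CPM and miR-130a-3p directly below, and neither differed from it beyond the spread. For miR-148a-3p they were miR-466h-5p, with 160.4 and 222.4 CPM, and miR-3535, with 144.0 and 223.1 CPM. For miR-148b-3p they were miR-126a-5p, with 169.2 and 161.3 CPM, and miR-190a-5p, with 179.8 and 164.0 CPM. With 2 libraries this is a likeness in level and nothing more.

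The seed of the family also occurs, moved by 1 base, at the 5′ end of another set of miRNAs. In these the letters CAGUGCA are bases 1 to 7, and their own seed is AGUGCAA, which pairs with TTGCACT and shares 6 letters with the family's site. The sequences are shown with bases 2 to 8 in capitals.
miR-130a-3p: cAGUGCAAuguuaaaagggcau
miR-301a-3p: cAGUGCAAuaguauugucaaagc
RefSeq listed 7 such names, of which 4 were found here. The search covered RefSeq mature sequences, which only 1231 of the 1477 names found here had, so the set may be incomplete. miR-301a-3p was the most abundant, with 21510 and 23138 counts, or 5654 ± 58.8 CPM (SD, n = 2). miR-130a-3p had 2330 and 3078 counts, miR-130b-3p 139 and 52, and miR-721 5 and 18. Together these 4 held 6.69 times the counts of the 3 family guides in replicate 1 and 5.55 times in replicate 2, a mean ratio of 6.12 ± 0.806. The family's guides were thus recovered in smaller number than the whole set with the offset seed, by a margin larger than the library-to-library spread. That margin came from miR-301a-3p, which held most of the set's counts. Each other name of the set had fewer counts than the family's guides in sum, in both libraries.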

How the data were processed

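Each library had 1 deposited table of whole-number counts per mature miRNA name, without normalization by the authors as far as the values show. Per the submitters' processing notes, cutadapt and Novoalign were used with mm10; versions, the counting rule and the handling of PCR copies are not given in the sources used here. Names not listed in a table were set to 0. Rows that are no miRNA names (0.00265% and 0.000218% of counts) stayed out. CPM, Wilson and exact intervals, exact binomial and Fisher tests were computed with Python 3.11.15 (scipy 1.17.1, pandas 2.3.3, numpy 2.4.6). The binomial tests between libraries and between arms were tried on counts simulated with counting error only. The Fisher tests were not, and behaviour under the spread between these libraries was not tested. edgeR 4.0.16 (TMM) and DESeq2 1.42.0 in R 4.3.3 gave scaling factors as alternatives. Biopython 1.88 aligned the 5p strands and matplotlib 3.10.9 drew the figures. edgeR's quasi-likelihood test needs groups and was not used.

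The names given were the 6 members, names sharing their seed or its offset by 1 base, the 2 names nearest in level to each guide, the neighbours in rank, and the genes around the hairpins. The members, lists and tests were chosen with earlier results of these data known. Marker names without the letter a (miR-142) were read under the tables' spelling. The alternatives were other totals, count minimums, thresholds, a drawn-down library and leaving out each library.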

Additional observations from a re-analysis of the deposited data

How the results depend on the processing

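In a total without the most abundant name the family held 0.128%, and the levels of miR-148b-3p and miR-152-3p came to 193.1 and 805.5 CPM, which follows from the smaller total. The other listed members also rose, miR-148a-3p to 224.2, miR-148b-5p to 47.5 and miR-152-5p to 8.08 CPM. Each of these rises was smaller than the member's SD over the libraries. Where a ratio of at least 2-fold was also required, miR-148a-3p (0.60), miR-152-3p (0.28), miR-152-5p (-0.89) and the summed family (0.28) no longer passed, and miR-152-5p (-0.89) did not at an adjusted p of 0.01. The number of names differing was 707, and it was 903 with no minimum, 638 at an adjusted p of 0.01, 441 at 2-fold, 254 when names had to average 100 counts, which leaves fewer to test, and 701 and 708 with the other scalings. Without a single library the ratio of miR-148a-3p to miR-148b-3p ranged from 0.885 to 1.46, which reverses its order. The same omissions gave ranges of 0.0985% to 0.121% for the family share and 74.1% to 86.8% for the 3p share of miR-148b. With 2 libraries such an omission leaves the value of a single library and is no measure of stability. With both libraries kept, 67 other recomputed values kept their direction and call or, where there was no test, moved by no more than 1 SD. Some of these 67 could not change, such as the level of miR-148a-5p at 0 counts. Nor could miR-148b-3p, which was not called, gain a call under a stricter threshold. The number is therefore no measure of stability either. Counts under about 30 limit what can be said of miR-152-5p. No paired analysis was possible because both libraries belong to the same group.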
